A study of Mus musculus with 5 samples.

Results

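β-Catenin peaks were examined around 4 genes of the Nodal pathway, Nodal, Tdgf1 (which encodes Cripto), Lefty1 and Lefty2, in mouse embryonic stem cells. Members were all peaks whose summit fell in 3 mm9 windows: chromosome 10 from 60.83 to 60.94 Mb for Nodal, chromosome 9 from 110.79 to 110.90 Mb for Tdgf1, and chromosome 1 from 182.77 to 182.92 Mb for Lefty2 and Lefty1 together. This gave 31 peaks of 44750 in 3 lists. The CHIR99021 anti-FLAG list contributed 12 of its 16069 peaks, the CHIR99021 streptavidin list 12 of 15947 and the DMSO list 7 of 12734.

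The cells were a V6.5 embryonic stem cell line with a biotin and 3xFLAG tag knocked into Ctnnb1, the β-catenin gene, and with the biotin ligase BirA, kept in serum and LIF on feeder cells from DR4 mice. Feeder cells were depleted by letting them settle on gelatin before ChIP, and 10000000 cells went into each ChIP. The groups were CHIR99021 (3 µM, an inhibitor of the kinase GSK3) with anti-FLAG capture, CHIR99021 (3 µM) with streptavidin capture, and DMSO, the vehicle, with streptavidin capture as labelled, although the file of that library was named for FLAG. Treatment lasted 16 h by the protocol, whereas the series text gives another time. Each group was 1 library, so no test across samples was possible, and the 95% intervals below cover counting error only. The anti-FLAG library had 16100920 unique tags and the CHIR99021 streptavidin library 11934863, and these 2 were called against the same input library. No tag total is given for the DMSO library, so its depth is not known. Its peaks were called with a modelled fragment length (d in the header) of 30 bp, against 185 and 214 bp for anti-FLAG and CHIR99021 streptavidin. Its tag counts are therefore given raw and not as a ratio.

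Nodal is a secreted ligand of the TGF-β family. It signals through activin receptors and the co-receptor Cripto to SMAD2 and SMAD3, which act on DNA with partners such as FOXH1. Lefty1 and Lefty2 are secreted inhibitors of Nodal and are themselves induced by it, which makes a feedback loop known from the early mouse embryo. β-Catenin, the effector of canonical Wnt signalling, binds no DNA sequence itself and is brought to chromatin mainly by TCF/LEF factors.

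No gene annotation of the mm9 build was used here, so peaks are given by position and are not assigned to a promoter, exon or intron. The windows are named for the 4 genes by the rule and could not be checked against an annotation of the same build. In the RefSeq gene table of GRCm38.p6, the nearest protein-coding neighbours were Pald1 and Eif4ebp2 for Nodal, and Fam240a and Lrrc2 for Tdgf1. A peak in these windows may therefore lie at another gene than the one in the window's name.

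RefSeq promoter sequences were matched by symbol for 2 of the 4 genes, Nodal and Tdgf1, and are shown because TCF/LEF, FOXH1 and SMAD are the DNA-binding partners of the pathways named above. They are the 250 bases before the gene start in GRCm38.p6, at chr10:61417722-61417971 on the plus strand for Nodal and chr9:110946159-110946408 on the minus strand for Tdgf1. Capitals mark the letters of a searched motif.
Nodal: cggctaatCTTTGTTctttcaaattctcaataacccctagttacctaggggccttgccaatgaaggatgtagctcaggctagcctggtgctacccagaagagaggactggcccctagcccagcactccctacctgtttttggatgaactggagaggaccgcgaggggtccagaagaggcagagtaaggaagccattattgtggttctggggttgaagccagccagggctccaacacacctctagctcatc
Tdgf1: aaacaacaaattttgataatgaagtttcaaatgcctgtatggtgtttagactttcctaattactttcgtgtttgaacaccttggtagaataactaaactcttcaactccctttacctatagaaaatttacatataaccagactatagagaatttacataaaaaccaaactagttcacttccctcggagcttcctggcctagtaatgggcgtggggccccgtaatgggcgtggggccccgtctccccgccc

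Both strands were searched. For TCF/LEF factors the letters were CTTTGAT, its variant ending in A (CTTTGAA), a form that ends with a double T (CTTTGTT) and a form with the ending TA (CTTTGTA). For FOXH1 they were AATCCACA or, with 1 letter changed, AATACACA. For SMAD proteins they were CAGACA or, as a palindrome, GTCTAGAC. No motif contains another. The Nodal sequence held 1 match, CTTTGTT on the gene's own strand, 242 to 236 bases before the start. Some TCF/LEF match was present in 14.8% of all 32851 RefSeq promoters of this length, and CTTTGTT itself in 5.03%. The Tdgf1 sequence held no match, which says only that these letters are not in this stretch. Among all promoters, 1.61% held a FOXH1 match and 17.3% a SMAD match. These sequences come from another build than the peaks, and no peak was placed on them.

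In CHIR99021-treated cells each window held 3 to 5 β-catenin peaks per capture, and most were found by both captures, with summits a median of 26 bp apart over 11 overlapping pairs. Of the 12 anti-FLAG peaks 10 shared bases with a CHIR99021 streptavidin peak, against 57.6% of the whole anti-FLAG list. Of the 12 streptavidin peaks 11 shared bases with an anti-FLAG peak, against 57.8% of that list. Sharing was more common among tag-rich peaks in general: 93.8% of all anti-FLAG peaks with at least 84 tags, the smallest count among the shared ones here, had a streptavidin partner. All 10 anti-FLAG peaks of that size in the windows had one. The overlaps formed 10 sites, 3 at Nodal, 4 at Tdgf1 and 3 at Lefty, which are numbered below by increasing coordinate.

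**Figure D1:**
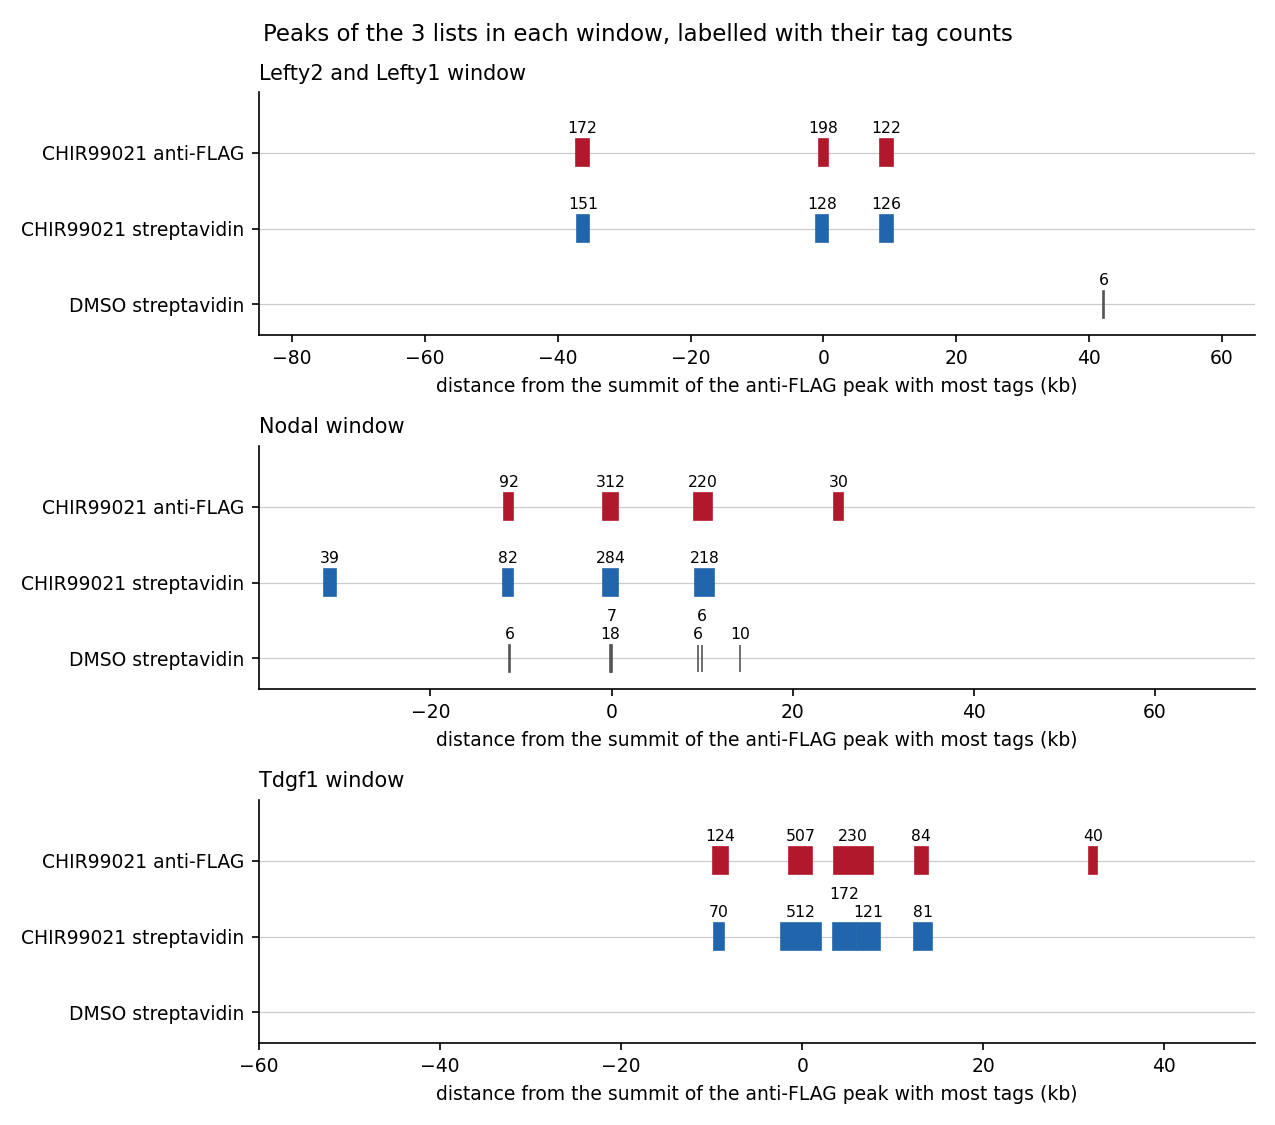
Peaks of the 3 lists in the Lefty, Nodal and Tdgf1 windows, drawn to scale against distance in kb from the summit of the anti-FLAG peak with most tags, with the tag count of each peak above it. Peaks of both CHIR99021 lists line up at 10 sites. DMSO peaks fall on the 3 Nodal sites and on none of the 7 sites at Tdgf1 and Lefty.

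At Nodal, the ligand gene, the 3 sites lay within 21131 bp from first to last summit. Site 1 (chromosome 10, 60857005 to 60858099) held 92 anti-FLAG tags and 82 streptavidin tags, with fold enrichments over the local background of 19.53 and 19.49. Site 2 (60868005 to 60869699) was the largest of the window, with 312 and 284 tags and fold enrichments of 25.72 and 34.17. Site 3 (60878043 to 60880285) held 220 and 218 tags, with fold enrichments of 15.43 and 17.28. Fold enrichments are the authors' values for single peaks and are comparable within a list.

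Summits of the anti-FLAG and streptavidin peaks at Nodal lay 3, 1 and 3 bp apart at sites 1, 2 and 3. Over all 9358 overlapping pairs of the 2 lists the median was 43 bp, and 4.93% of pairs lay within 3 bp. Those pairs were not matched to the Nodal sites by tag count, so the short distances are not read as particular to Nodal. Site 2 ranked 225 by p score in the anti-FLAG list and 145 in the streptavidin list, which puts it in the top 1.40% and 0.909%. The score is −log10 of the authors' p-value multiplied by 10. Each capture had 1 further Nodal peak that the other did not call. The anti-FLAG one (60893517 to 60894504) had 30 tags and the streptavidin one (60837201 to 60838554) had 39 tags at a p score of 55.86, close to the calling limit of 50.

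At Tdgf1, the gene of the co-receptor, 4 sites lay within 22346 bp. Site 2 (chromosome 9, 110847636 to 110852126) was the largest of the 10 sites in both captures, with 507 anti-FLAG and 512 streptavidin tags. These counts placed 21st and 17th in the 2 whole lists. Its fold enrichments, 14.33 and 18.28, were lower than those of the Nodal site 2 in the same lists. Site 3 (110853383 to 110858562) consisted of 1 anti-FLAG peak of 230 tags and 2 streptavidin peaks of 172 and 121 tags. Its anti-FLAG fold enrichment was 4.39, below the list median of 8.13. The streptavidin peaks had 10.61 and 4.83, above and below their list median of 8.56.

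The outer Tdgf1 sites were smaller. Site 1 (110840206 to 110841809) held 124 anti-FLAG and 70 streptavidin tags, and site 4 (110862393 to 110864339) held 84 and 81. Summits at Tdgf1 were farther apart than at Nodal, with 127, 46, 51 and 720 bp at sites 1 to 4, taking the streptavidin peak with more tags at site 3. An anti-FLAG peak of 40 tags (110881665 to 110882592) had no streptavidin partner. Among all anti-FLAG peaks of 30 to 40 tags, the counts of the 2 unshared peaks at these windows, 54.5% had one.

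At Lefty, the window of the inhibitor genes Lefty2 and Lefty1, 3 sites spread over 45046 bp. Site 1 (chromosome 1, 182817784 to 182819695) held 172 anti-FLAG and 151 streptavidin tags, site 2 (182853968 to 182855709) held 198 and 128, and site 3 (182863498 to 182865530) held 122 and 126. The strongest by p score was site 2 for anti-FLAG (624.64, top 4.70%) and site 1 for streptavidin (290.81, top 11.3%). Summits lay 11, 26 and 12 bp apart at sites 1, 2 and 3. Every CHIR99021 peak of this window had a partner in the other capture.

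The windows were next set beside the rest of the genome. Nodal peaks together held 654 anti-FLAG tags (interval 605 to 706) and 623 streptavidin tags (575 to 674). Tdgf1 peaks held 985 (924 to 1048) and 956 (896 to 1019), and Lefty peaks 492 (449 to 537) and 405 (367 to 446). Tags from any stretch common to Lefty1 and Lefty2 could not be placed uniquely, and their part in the Lefty totals was not tested. When the genome was cut into tiles of 110 kb, 0.257% of tiles held at least as many anti-FLAG peak tags as the Nodal window, and 0.0513% as many as the Tdgf1 window. For streptavidin the shares were 0.227% and 0.0385%, and 0.325% of tiles reached the 53 DMSO tags of the Nodal window. Tiles of 150 kb reached the Lefty totals in 1.16% of cases for anti-FLAG and 1.27% for streptavidin. By number of peaks the tiles that matched the windows were more common. The 4 peaks at Nodal were reached by 2.57% of tiles for anti-FLAG and 2.48% for streptavidin, and the 5 at Tdgf1 by 1.06% and 0.971%. The 3 peaks at Lefty were reached by 10.9% of 150 kb tiles for anti-FLAG and 10.6% for streptavidin. The 6 DMSO peaks of the Nodal window were reached by 0.197% of tiles, and the 1 of the Lefty window by 43.3%. The windows were drawn around the genes and the tiles were not placed around anything, so these shares are descriptions.

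Neighbouring summits of shared sites were 11303 and 9828 bp apart at Nodal, 9337, 4039 and 8970 bp at Tdgf1, and 36005 and 9041 bp at Lefty. Of these 7 spacings, 6 were within 12 kb, against 12.4% of all neighbouring pairs of shared sites in the genome. Pairs were counted only where both summits fell in a window, so spacings above 110 kb at Nodal and Tdgf1 and above 150 kb at Lefty could not occur. Of the neighbouring pairs in the genome that lay at most 150 kb apart, 23.3% were within 12 kb. The windows were also chosen with earlier results of these lists known, so nothing particular to them is read from the spacing. Outside the windows, the nearest anti-FLAG peaks by position lay 51.7 and 109 kb from the edges of the Nodal window, 419 and 90.0 kb from those of Tdgf1, and 71.0 and 154 kb from those of Lefty. The nearest DMSO peak to any edge, 1.11 kb beyond the Nodal window, had 6 tags.

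All 24 CHIR99021 peaks of the windows were longer than the median of their own list. Anti-FLAG peaks ranged from 928 to 4315 bp against a list median of 859 bp, and streptavidin peaks from 1051 to 4491 bp against 926 bp. Tag counts were also high, with a median of 148 anti-FLAG tags here against 39 over the list, and 127 streptavidin tags against 34. Fold enrichments stood nearer to the rest of the lists: the median was 8.29 for anti-FLAG and 10.5 for streptavidin, against list medians of 8.13 and 8.56.

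**Figure D2:**
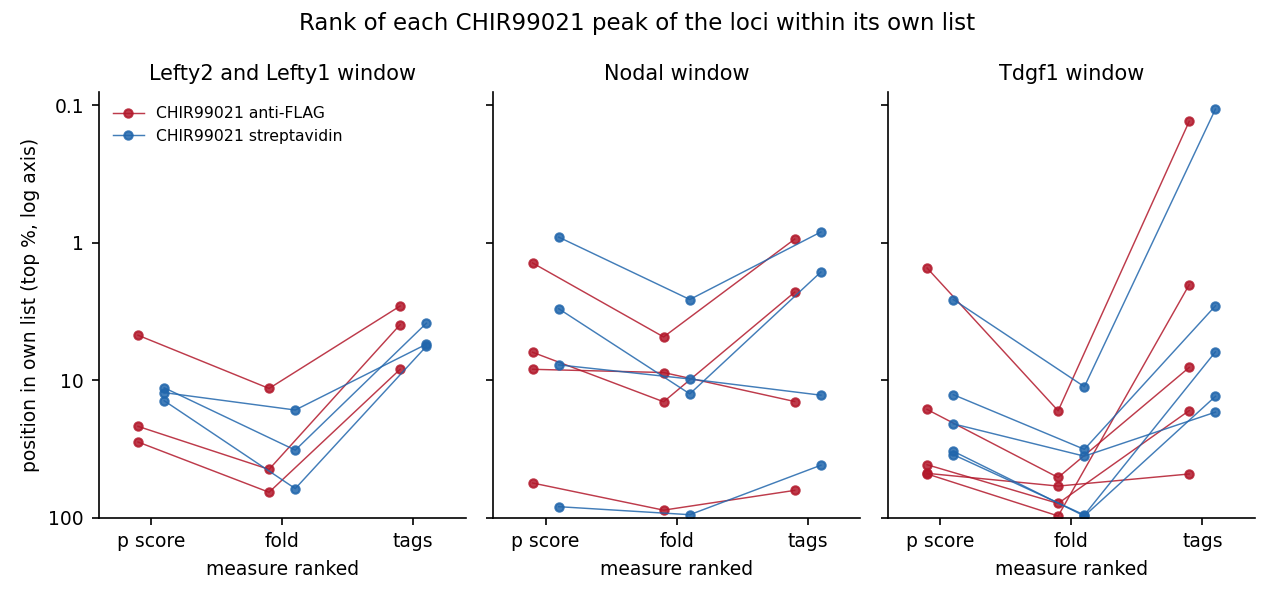
Position of each CHIR99021 peak of the windows in its own list, as the top percent on a log axis, when the list is ranked by p score, by fold enrichment or by tag count; each line is 1 peak and colours are the captures. By tags, the Tdgf1 site 2 peaks lie in the top 0.131% and 0.107%, and by fold in the top 16.7% and 11.1%.

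By the median CHIR99021 peak, the order of the windows was the same by p score and by fold enrichment, and it changed by tag count. The median anti-FLAG peak of the Tdgf1 window stood in the top 41.1% by p score, 58.8% by fold enrichment and 8.06% by tag count. Its median streptavidin peak stood in the top 20.7%, 35.6% and 6.21%. The median anti-FLAG peak of Lefty moved likewise between the top 21.6% by p score, 44.4% by fold enrichment and 3.93% by tag count. That of Nodal stood in the top 7.28%, 11.5% and 8.27%. Nodal sites 1, 2 and 3 were in the top 10% of both lists by p score, but site 1 was not by tag count, and site 3 was not by fold enrichment.

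The amounts recovered by the 2 captures were compared after scaling to unique tags. Over the shared sites of a window, anti-FLAG over streptavidin was 0.792 at Nodal (interval 0.706 to 0.888), 0.733 at Tdgf1 (0.669 to 0.802) and 0.900 at Lefty (0.788 to 1.03). Summed over all 9113 shared regions of the genome, the ratio was 0.875. The interval of the Tdgf1 value lay below it, and those of Nodal and Lefty included it. Scaled instead by the tags in all peaks of each list, the Lefty value was 1.05, on the other side of 1. That scaling multiplies every ratio, also the genome's, by the same factor, so the windows keep their places relative to the genome. With a fold enrichment of at least 10 in every list, 1 of the 4 Tdgf1 and 1 of the 3 Lefty sites were left, and 3 at Nodal.

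**Figure D3:**
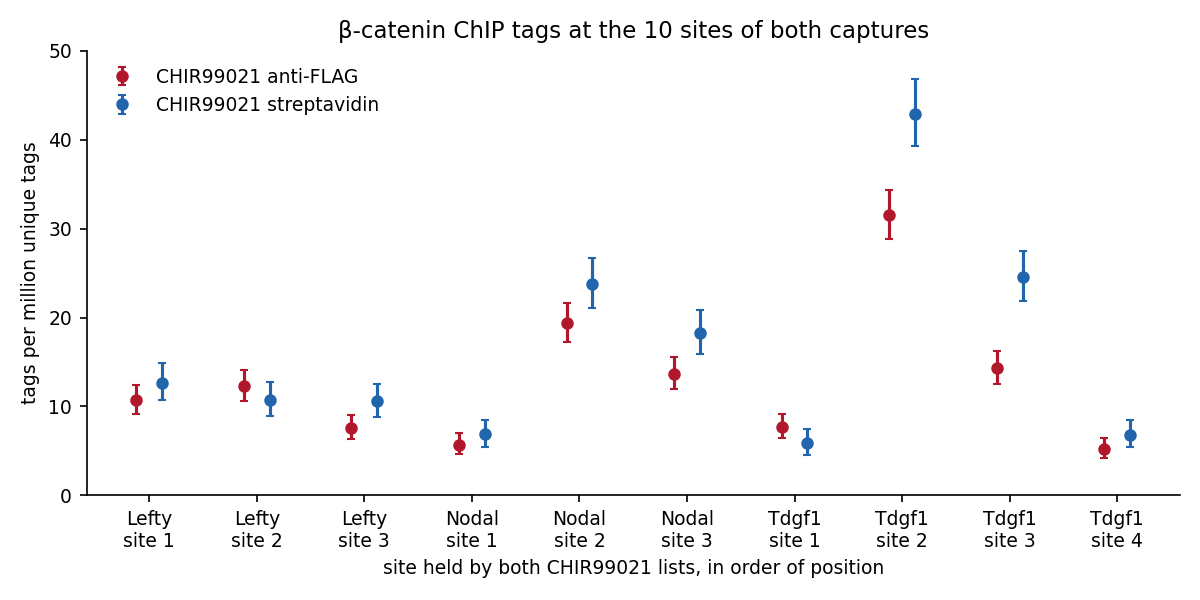
Tags per 1000000 unique tags at the 10 sites, anti-FLAG in red to the left of streptavidin in blue, with exact 95% Poisson intervals for counting error and 1 library per point. Tdgf1 site 2 is the highest at 31.5 and 42.9, followed by Nodal site 2 (19.4) and Tdgf1 site 3 (14.3) for anti-FLAG and by Tdgf1 site 3 (24.5) and Nodal site 2 (23.8) for streptavidin. The streptavidin value of Tdgf1 site 3 sums 2 peaks of 14.4 and 10.1, each below the single peak of Nodal site 2.

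Single sites varied more than the windows. The ratio was highest at Tdgf1 site 1 (1.31, interval 0.972 to 1.79) and Lefty site 2 (1.15, 0.913 to 1.44), and lowest at Tdgf1 site 3 (0.582, 0.487 to 0.694). Single shared regions of the genome had a median ratio of 0.879, with 0.609 and 1.29 at the 10th and 90th percentiles. Tags were counted in each list's own interval, and the 2 intervals of a site differed in length, in either direction relative to the ratio. At Tdgf1 site 1 the anti-FLAG peak was 1604 bp long and the streptavidin peak 1133 bp. At Tdgf1 site 2, where the ratio was 0.734, it was 2527 against 4491 bp. At site 3 it was 4315 bp against 2602 and 2528 bp. At site 4, with a ratio of 0.769, it was 1456 against 1947 bp. At Lefty site 2, with a ratio of 1.15, the anti-FLAG peak was the shorter, 1353 against 1742 bp. At Lefty site 1, with a ratio of 0.844, it was the longer, 1912 against 1667 bp. Lefty site 3 had 1958 against 2031 bp at a ratio of 0.718. The Nodal sites 1, 2 and 3 had 989 against 1051, 1692 against 1638 and 2072 against 2054 bp. Their ratios were 0.832, 0.814 and 0.748. The part of interval length in the ratios was not tested.

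With DMSO the windows differed in their peaks. Peaks of the DMSO list lay in all 3 Nodal sites and in none of the 4 Tdgf1 or 3 Lefty sites. This made 3 of 10 shared sites with a DMSO peak, against 12.9% of all 9113 shared regions in the genome, and against 30.6% of those with at least 84 anti-FLAG tags. When peaks under a p score of 100 were left out of all lists, 1 of the Nodal sites, site 2, kept a DMSO peak, and at an FDR of at most 1%, which 14 DMSO peaks of the whole list met, 0 did. Of the 7 DMSO peaks in the windows 5 shared bases with a CHIR99021 peak, against 15.0% of the DMSO list. These 5 lay in the 3 Nodal sites, some in the same site, so they are not separate sites.

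Nodal site 2, with 312 anti-FLAG and 284 streptavidin tags under CHIR99021, held 2 DMSO peaks of 18 and 7 tags. The peak of 18 tags (60868788 to 60868933) ranked 192 of 12734 by p score. The DMSO summits stood 107 bp before and 12 bp after the anti-FLAG summit. Nodal site 3 held 2 DMSO peaks of 6 tags each, with summits 266 bp before and 186 bp after it. Nodal site 1 held 1 DMSO peak of 6 tags, 38 bp after it. These offsets, and the split of a site into 2 DMSO peaks, may depend on the modelled fragment length. That length was 30 bp for DMSO and 185 bp for anti-FLAG. The offsets are therefore not read as separate binding positions, and the part of this difference was not tested. A count of 6 is the smallest in the DMSO list, where 71.3% of peaks had exactly that many, so sites 1 and 3 rest on peaks at the limit of calling.

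The other DMSO peaks of the windows had no CHIR99021 partner. On chromosome 10 a DMSO peak of 10 tags (60883136 to 60883196) ranked 259 by p score with a fold enrichment of 38.71, at an FDR of 18.15%. It lay 3022 bp from the nearest anti-FLAG peak and 2851 bp from the nearest streptavidin peak. DMSO peaks of at least 10 tags shared bases with a CHIR99021 peak in 71.3% of 799 cases. On chromosome 1 a DMSO peak of 6 tags (182897216 to 182897284) lay 31686 bp from the nearest CHIR99021 peak.

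**Figure D4:**
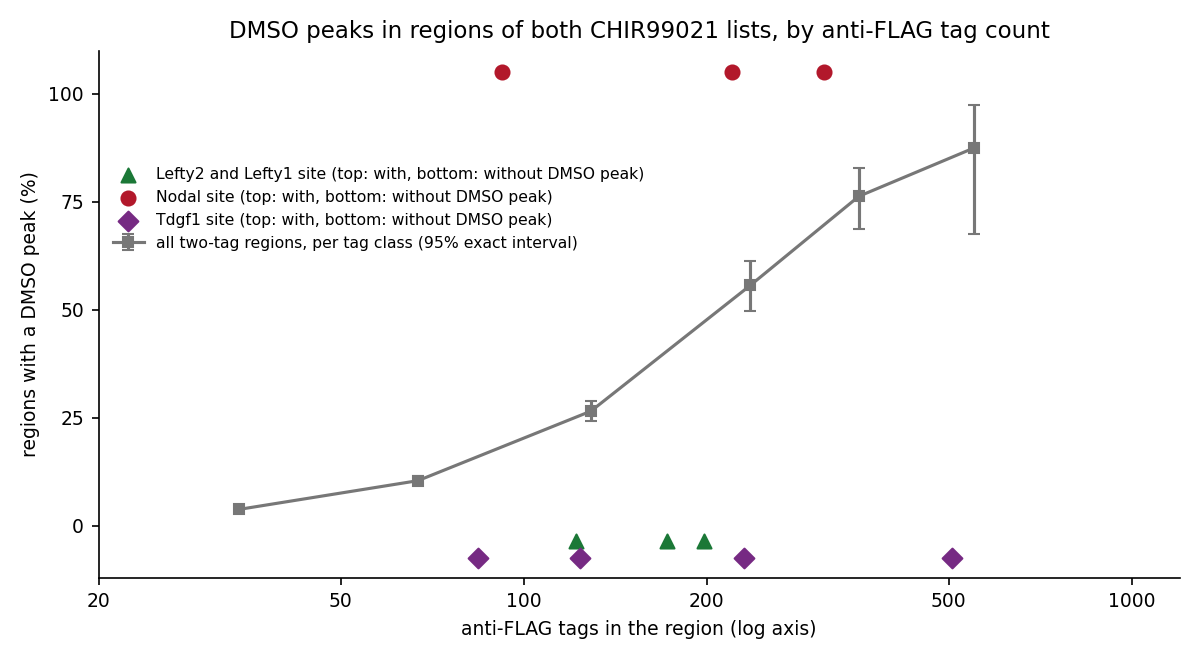
Share of regions of both CHIR99021 lists that hold a DMSO peak (%), by anti-FLAG tag count on a log axis, in 6 classes placed at their median with exact 95% intervals over regions. Symbols show the 10 sites, at the top edge when they hold a DMSO peak and at the bottom edge when not; Tdgf1 site 2 is the rightmost symbol, where 87.5% of regions hold one.

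In the genome as a whole, regions with more anti-FLAG tags more often held a DMSO peak. The share was 3.83% (interval 3.26 to 4.48%) below 50 tags, 10.5% (9.45 to 11.6%) from 50 to 99, 26.6% (24.3 to 28.9%) from 100 to 199 and 55.7% (49.9 to 61.4%) from 200 to 299. It was 76.3% (68.7 to 82.8%) from 300 to 499 tags and 87.5% (67.6 to 97.3%) from 500 tags on. Tdgf1 site 2, with 507 anti-FLAG tags, was without a DMSO peak, whereas 18 of the 21 shared regions with at least 507 tags (85.7%) had one. By streptavidin tags, 14 of the 15 regions with at least 512 tags (93.3%) had one, and by anti-FLAG p score, 78.3% of the 244 regions at or above this site. Nodal site 2 held a DMSO peak, as did 80.0% of regions with at least its 312 tags and 79.0% of those with at least its anti-FLAG p score. The Lefty sites, with 122 to 198 tags, fell in the class where 26.6% held one, and of all regions with at least 198 tags, 63.2% did.

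A site without a DMSO peak is a site without a call. With the depth of the DMSO library unknown and its peaks called at another modelled fragment length, no limit on occupancy at Tdgf1 or Lefty under DMSO can be given. A difference in occupancy between CHIR99021 and DMSO was not tested.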

How the data were processed

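β-Catenin ChIP-seq peaks of 3 libraries were analysed, and the 2 input libraries were not analysed on their own. Per the file headers, the authors called peaks with MACS (version not given in the sources used here) on ELAND alignments, each ChIP library against 1 input, with a p-value cutoff of 1.00e-05 and a tag size of 25 bp. Per the submitters' processing notes, coordinates are mm9. Per the file headers, each deposited row holds a tag count, a p score (10 times −log10 of the p-value), a fold ratio (enrichment above local background) and an FDR, the false discovery rate, as a percent. Peaks within a list were ranked by p score.

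Peaks sharing at least 1 bp were joined into regions. Tag counts carry exact Poisson intervals, ratios exact conditional binomial intervals and shares exact Clopper-Pearson intervals, all at 95%. Ratios were scaled by unique tags. Tiles started at the first peak of each chromosome. All sites of both CHIR99021 lists and all DMSO peaks in the windows were to be named. The members and lists were chosen with earlier results of these data known. Code for overlaps and intervals was tested on simulated data. The planned identity of the Lefty1 and Lefty2 promoters, the motifs under summits and the count over other pathway genes were not run, since they need sequences or an mm9 annotation not used here. Alternatives are given in the closing section. The software was scipy 1.17.1, pandas 2.3.3 and numpy 2.4.6 under Python 3.11.15, with figures by matplotlib 3.10.9.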

Additional observations from a re-analysis of the deposited data

How the results depend on the processing

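Filters on the lists moved counts at these windows. With a p score of at least 100, Tdgf1 kept 3 anti-FLAG peaks (715 tags), Nodal 2 DMSO peaks (28 tags) and 1 site with a DMSO peak, and Lefty 0 DMSO peaks and tags. With a fold enrichment of at least 10, Lefty kept 1 anti-FLAG peak (198 tags), 279 streptavidin tags and 1 shared site, and Tdgf1 kept 1 anti-FLAG peak (507 tags), 3 streptavidin peaks (754 tags) and 1 shared site. An FDR of at most 5% left 25 DMSO tags at Nodal. An FDR of at most 1%, chosen after seeing the data, left 342 anti-FLAG tags at Nodal, 478 at Tdgf1 and 0 DMSO peaks and tags at Nodal and Lefty, and so 0 Nodal sites with a DMSO peak. These losses follow from the peaks' own values. Scaled by the tags in all peaks, anti-FLAG over streptavidin was 1.05 at Lefty, 0.925 at Nodal and 0.855 at Tdgf1; scaled by the median over all shared sites it was 0.901 at Nodal and 0.833 at Tdgf1. The median position by fold enrichment was the top 44.4% (anti-FLAG) and 32.2% (streptavidin) at Lefty, 11.5% and 11.2% at Nodal, and 58.8% and 35.6% at Tdgf1. By tag count it was 3.93% and 5.46% at Lefty, 8.06% and 6.21% at Tdgf1, and 28.7% and 22.6% for DMSO at Lefty and Nodal. Summits within 200 or 1000 bp, 50% reciprocal overlap, 1 bp in the window, total tags, all peaks of a window and 1 pair per site kept each value within 1.5 times, or within its interval for ratios. No paired analysis was possible because no group held more than 1 library.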

Other observations

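In the anti-FLAG and DMSO lists, the authors' false discovery rate did not follow the p score at these windows. That of the CHIR99021 streptavidin peaks did. It was 0 at the highest p score there (1413.33) and 3.17% at the lowest (55.86). In the anti-FLAG list, the strongest peak of Nodal (312 tags, p score 1278.26) had an FDR of 1.33% and that of Tdgf1 (507 tags, p score 1227.11) one of 1.22%. The 10 weaker anti-FLAG peaks of the windows lay between 0.33 and 0.79%. A limit of 1% would thus take out the largest Nodal and Tdgf1 sites and keep an anti-FLAG peak of 30 tags. At the very top of the whole anti-FLAG list, 158 of the 160 peaks in the top 1% by p score had an FDR above 1%, against 35.2% of all its peaks. Over the top 10% the share was 27.8%, below that of the list, and the median FDR there was 0.75%, against 2.34% in the lowest 10%. In the CHIR99021 streptavidin list 0 of the top 159 did.

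In the DMSO list the stronger peaks of the windows also had the higher FDRs. The Nodal peaks of 18 and 10 tags had FDRs of 20.31 and 18.15%, whereas the DMSO peaks of 6 or 7 tags in the windows lay between 3.1 and 3.27%. The median FDR of the top 1% of the DMSO list was 13.5%, against 3.35% in its lowest 10%, but all 14 DMSO peaks with an FDR of at most 1% were also among the 128 peaks of that top 1%.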
